A study of Mus musculus with 19 samples.

Results

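The genes described here encode 10 RNA-binding proteins of neural cells: the quaking gene Qk, the Musashi genes Msi1 and Msi2, the ELAVL (Hu) genes Elavl1, Elavl2, Elavl3 and Elavl4, the CELF genes Celf1 and Celf2, and the RBFOX gene Rbfox2. They were taken by symbol from the 22958 lines of the expression table, and all 10 were found and had enough reads to be tested. RNA was sequenced from 3 libraries of mouse glial cells derived from embryonic stem cells (ESCs), called glia here, and from 4 libraries of ESC-derived glial progenitor cells (GPC). Chromatin immunoprecipitation (ChIP-seq) in GPC gave 1 list of peaks each for SOX3, SOX9 and NFIA, all transcription factors. Per the labels' protocols, the ESCs were turned to a neural fate with 0.1 μM all-trans retinoic acid in N2B27 medium, cells carrying the surface antigen A2B5 were collected with magnetic beads on day 8, and the sorted cells were expanded with EGF and FGF2 at 10 ng/ml. The labels carry that text for both groups, and the sources used here do not state the steps that turned GPC into glia, the ESC line, its genotype or the age of the glia.

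RNA-binding proteins act after transcription. The ELAVL proteins bind AU- and U-rich stretches and stabilize mRNAs or alter their splicing; ELAVL1 (HuR) is made in most cells, while ELAVL2, ELAVL3 and ELAVL4 are best known from neurons. QKI, the product of Qk, is a KH-domain protein of the STAR family that is abundant in glia, where it acts on splicing, stability and transport of myelin mRNAs, and Musashi proteins repress translation in neural stem and progenitor cells. CELF and RBFOX proteins bind GU-rich and GCAUG elements and regulate alternative splicing.

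Reads counted in genes numbered 6897294 to 17369367 in glia and 12836998 to 22439837 in GPC. GPC replicate 3 was the deepest library and stood apart from the other GPC: 1.79% of 11819 well-covered genes differed by more than 1 on the log2 scale from the mean of the rest of its group, against at most 0.05% in any other library. Markers of maturing oligodendrocytes (led by Mbp and Cnp) summed to 1270 to 1910 RPKM (reads per kilobase of gene model, scaled to library size, as deposited) in glia and 105 to 124 RPKM in GPC, and astrocyte markers (led by Apoe and Gfap) to 7740 to 9980 RPKM in glia and 825 to 1250 RPKM in GPC. Neural progenitor markers (led by Fabp7 and Vim) summed to 3310 to 3380 RPKM in glia and 6940 to 7430 RPKM in GPC. Most of that difference was Fabp7, at a mean of 1660 RPKM in glia and 5530 RPKM in GPC; of the 10 markers 4 rose, 3 fell and 3 did not pass, with a median log2 change of 0.09. Oligodendrocyte precursor genes gave 1090 to 1470 RPKM in glia and 1620 to 1780 RPKM in GPC, a sum led by Olig1 and Olig2, which both fell. Of these 10 genes 7 rose and 3 fell, with a median log2 change of 1.57, so most went against the sum. Markers of cycling cells (led by Pcna and Top2a) summed to 200 to 207 RPKM in glia and 756 to 954 RPKM in GPC, and mesenchymal genes (led by Col3a1 and Col1a1) 615 to 742 RPKM in glia and 136 to 155 RPKM in GPC. In every library the lists of microglia (Tmem119 and P2ry12 highest), endothelium (Kdr and Emcn) and pluripotent cells (Esrrb and Nanog) stayed under 10 RPKM in sum, and the defining genes Cx3cr1, Cldn5 and Pou5f1 were listed at 0. In such bulk samples, fewer cells of a type and less RNA per cell cannot be told apart.

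The start regions of 3 of the genes are shown because Elavl3 changed most, Elavl1 is its most abundant relative in GPC, and Celf1 had the smallest p among the genes that fell. RefSeq promoter windows of build GRCm38.p6 were matched by symbol for 8 of the 10 genes, in 22 windows; Msi1 and Rbfox2 had no entry. Each line gives the 250 bases before an annotated start, 5′ to 3′ on the strand of the gene, with capitals at matches to the SOX motifs ACAAT and ACAAAG or the NFI half-site TTGGCA, searched on both strands.
Elavl3 (chr9:22052024-22052273, minus strand): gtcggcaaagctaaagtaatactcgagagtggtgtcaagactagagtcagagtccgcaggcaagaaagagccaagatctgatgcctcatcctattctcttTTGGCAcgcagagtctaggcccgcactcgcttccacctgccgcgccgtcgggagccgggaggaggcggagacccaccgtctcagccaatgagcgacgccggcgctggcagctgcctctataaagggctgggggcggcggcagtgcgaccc
Elavl1 (chr8:4325101-4325350, minus strand): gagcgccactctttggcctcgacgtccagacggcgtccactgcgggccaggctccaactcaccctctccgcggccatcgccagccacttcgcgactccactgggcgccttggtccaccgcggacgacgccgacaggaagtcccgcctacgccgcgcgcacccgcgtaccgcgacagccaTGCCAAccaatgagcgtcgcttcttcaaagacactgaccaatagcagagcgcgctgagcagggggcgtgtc
Celf1 (chr2:90940147-90940396, plus strand): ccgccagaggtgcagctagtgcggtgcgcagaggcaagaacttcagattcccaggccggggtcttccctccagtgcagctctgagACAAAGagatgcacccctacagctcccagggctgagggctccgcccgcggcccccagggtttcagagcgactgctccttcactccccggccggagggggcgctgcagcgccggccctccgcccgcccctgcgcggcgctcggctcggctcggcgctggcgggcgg
The Elavl3 window held TTGGCA beginning 150 bases before the start, the Elavl1 window held it on the opposite strand beginning 71 bases before the start, and the Celf1 window held ACAAAG beginning 165 bases before the start. Over all 22 windows, some of which overlap one another, ACAAT was found in 3 (of Elavl2 and Elavl4), ACAAAG in 3 (of Celf1, Celf2 and Elavl2) and TTGGCA in 3 (of Elavl1, Elavl3 and Elavl4). Among all 32851 promoter windows of the same length, 27.7% held ACAAT, 16.5% held ACAAAG and 12.3% held TTGGCA. The palindromic NFI motif (TTGGC, any 5 bases, GCCAA), which can contain TTGGCA, was in none of the 22 windows and in 0.0365% of all. GC content of the windows spanned 44.0%, at an Elavl4 start, to 84.8%, at the Qk start, around a median of 52.4% over all windows.

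Between glia and GPC, 2 of the 10 genes rose (Elavl3 and Msi1), 3 fell (Msi2, Elavl2 and Celf1) and 5 (Qk, Elavl1, Elavl4, Celf2 and Rbfox2) did not pass the test. Elavl3 had the largest change of the 10, at 11.1-fold, while Msi1 rose 1.56-fold, and Msi2, Elavl2 and Celf1 were 1.37- to 1.43-fold lower in glia. Over all 13588 genes tested, 70.4% were called, 35.2% higher and 35.2% lower in glia (quasi-likelihood test of edgeR, two-sided, with p adjusted after Benjamini and Hochberg and a threshold of 0.05), so the 5 of 10 called here lie below the background share. In the same 5 genes the RPKM of the 2 groups did not overlap, as in 69.1% of all tested genes. The median log2 change of the 10 was -0.08, beside 0.0 over all genes, and the median absolute log2 change 0.45, beside 0.5. Nothing in the labels ties a replicate to a culture of its own. The p-values therefore cover only the variation among these libraries, which may be technical. Without GPC replicate 3, Qk and Rbfox2 also passed and 4 of the 10 rose. Calls over all genes also became more frequent in that setting. Of 13550 genes tested, 5159 were higher and 5114 lower in glia, against 4789 and 4779 of 13588 with all libraries.

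**Figure D1:**
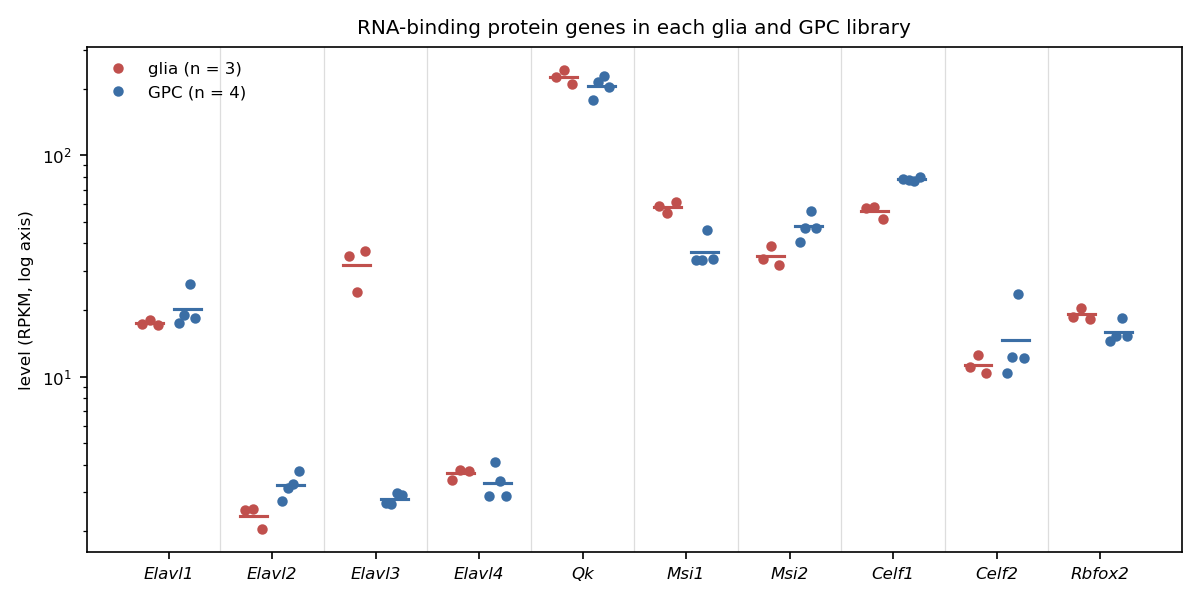
Level of each gene in every library, in RPKM on a log axis; points are libraries (3 glia, 4 GPC) and bars the group means. Elavl3 lies at 24.1 to 36.9 RPKM in glia and 2.66 to 2.97 RPKM in GPC, and the highest GPC points of Msi1, Elavl1 and Celf2 all belong to GPC replicate 3.

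Elavl3, which encodes the neuronal ELAVL protein HuC, was counted in 3013, 832 and 3214 reads in glia replicates 1 to 3, against 173, 175, 335 and 191 reads in GPC replicates 1 to 4. These counts correspond to 35, 24.1 and 36.9 RPKM in glia and to 2.68, 2.66, 2.97 and 2.93 RPKM in GPC. Every glia library was far above every GPC library. Glia replicate 2, the shallowest library, was the lowest of the 3 also in RPKM, which is scaled to library size, and the reason was not tested. The log2 change was 3.48 ± 0.15 (SE), with an adjusted p of 5.04e-08 by edgeR. Rises of at least 8-fold were called in 3.34% of tested genes, and 2.83% of them had a larger absolute log2 change than Elavl3. Leaving out any 1 library gave log2 changes of 3.36 to 3.64.

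Of the other neuronal ELAVL genes, 1 fell and 1 did not pass. Elavl2, which encodes HuB, had 2.49, 2.52 and 2.04 RPKM in glia and 2.74, 3.14, 3.26 and 3.75 RPKM in GPC. All 3 glia values lay below all 4 GPC values, and the gene fell by 0.46 on the log2 scale (SE 0.14, adjusted p = 0.0134 by edgeR). That call ended without glia replicate 3 (adjusted p = 0.0697). Elavl4, which encodes HuD, had 3.42, 3.79 and 3.75 RPKM in glia and 2.90, 4.10, 3.37 and 2.90 RPKM in GPC, groups that overlapped (log2 change 0.10 ± 0.13, adjusted p = 0.539). Both genes were low in every library, with 72 to 294 reads for Elavl2 and 103 to 300 for Elavl4.

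Elavl1, the broadly expressed member, had 17.3, 18 and 17.2 RPKM in glia and 17.4, 19.0, 26.3 and 18.5 RPKM in GPC. The groups overlapped, GPC replicate 3 was above the other 3 GPC libraries, and the log2 change of -0.25 ± 0.14 did not pass (adjusted p = 0.123). Without GPC replicate 3 it was -0.09 (adjusted p = 0.162). The 4 genes together summed to 58.2, 48.3 and 59.9 RPKM in glia and to 25.8, 28.9, 35.9 and 28.1 RPKM in GPC.

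Within that sum, the share of each of the 4 genes was apart between the groups. Shares of 1 sum are not separate results, since a rise of Elavl3 lowers the shares of the others. The Elavl4 share was lower in glia, although its mean level was 3.65 RPKM in glia and 3.32 RPKM in GPC. Elavl3 made up 60.1%, 49.8% and 61.6% of ELAVL RPKM in glia, against 10.4%, 9.23%, 8.28% and 10.5% in GPC. Elavl1 made up 29.8%, 37.1% and 28.7% in glia and 67.7%, 65.7%, 73.2% and 65.9% in GPC. Elavl3 was thus the most abundant ELAVL transcript in all 3 glia libraries and Elavl1 in all 4 GPC libraries. The mean shares of Elavl2 and Elavl4 were 4.30% ± 0.906 and 6.66% ± 1.04 in glia (SD, n = 3), and 11.0% ± 1.77 and 11.3% ± 2.09 in GPC (SD, n = 4). For each of the 4 shares the groups did not overlap and the exact permutation test gave the smallest two-sided p that 3 against 4 libraries allow, 0.0571 (0.0686 adjusted over the 6 family shares tested), so no share could pass 0.05.

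**Figure D2:**
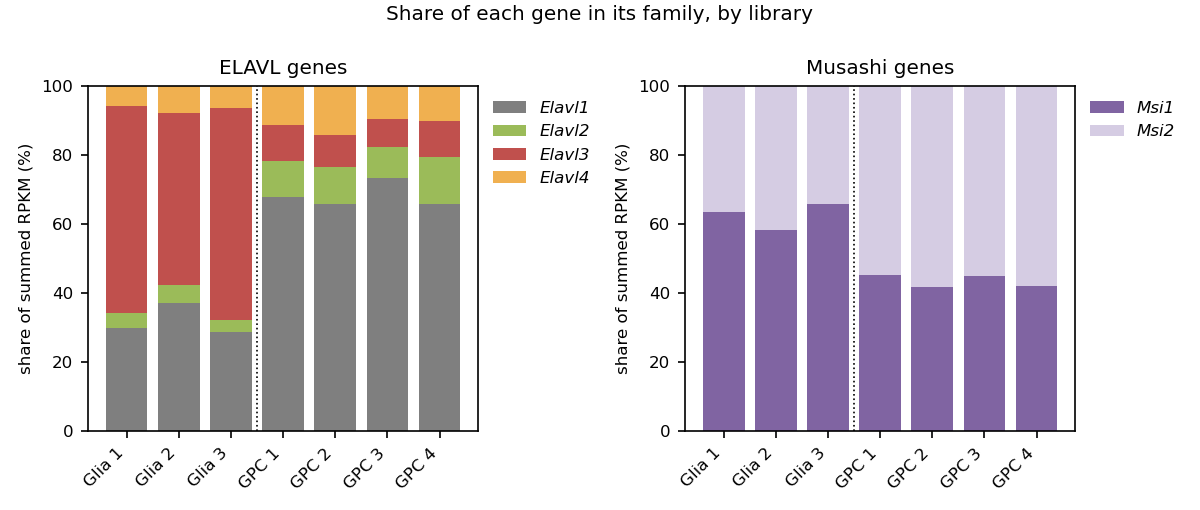
Share of each gene in the summed RPKM of the 4 ELAVL genes (left) and of the 2 Musashi genes (right), in percent, for each of the 3 glia and 4 GPC libraries; the dotted line separates the groups. Elavl3 takes 49.8% to 61.6% in glia and 8.28% to 10.5% in GPC, and Msi1 58.3% to 65.7% in glia and 41.7% to 45.3% in GPC.

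Because Elavl2, Elavl3 and Elavl4 are known from neurons, the neuronal markers measured in the same libraries are given beside them. The 18 markers (Map2 and Gap43 highest) summed to 345 to 368 RPKM in glia and 304 to 315 RPKM in GPC. Of 14 tested, 8 rose and 2 fell, with a median log2 change of 0.54. The falls were Map2, for a dendritic microtubule protein, at 127.9, 140.6 and 113.8 RPKM in glia and 137.0, 154.7, 152.2 and 155.2 RPKM in GPC, and Neurod1, for a neuronal transcription factor, at a mean of 0.189 RPKM in glia and 0.669 RPKM in GPC. Their log2 changes were -0.27 ± 0.08 and -1.84 ± 0.30 (adjusted p = 0.0131 and 0.000265 by edgeR), and the Map2 call ended without glia replicate 3 (adjusted p = 0.0613). Among those that rose, Dcx, a microtubule protein of young neurons, had 32.2, 33.7 and 26.7 RPKM in glia and 4.38, 4.94, 4.46 and 4.82 RPKM in GPC, and Tubb3, a neuronal tubulin, 31.2, 26.0 and 32.9 RPKM in glia and 16.4, 14.4, 19.2 and 15.3 RPKM in GPC. The other log2 rises were Nefh (3.34 ± 0.40), Syt1 (3.28 ± 0.15), Gad1 (2.88 ± 0.44), Ina (0.94 ± 0.10), Nefl (0.75 ± 0.17) and Syn1 (0.33 ± 0.12). Nefh and Gad1 stayed under 1 RPKM, and the Syn1 call ended without glia replicate 1, glia replicate 3 or GPC replicate 4. Slc17a6, a glutamate transporter of neurons, was listed at 0 in all libraries, 7 of the 18 markers stayed under 1 RPKM throughout, and Stmn2, for a growth cone protein, reached at most 0.513 RPKM in glia and 1.02 RPKM in GPC. Stmn2 did not pass, except without GPC replicate 3 (log2 change -1.15, adjusted p = 0.00234). The part of neuronal cells in the Elavl3 values was not tested.

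The Musashi genes went in opposite directions. Msi1, the Musashi gene best known from neural stem cells, had 59.3, 54.7 and 61.5 RPKM in glia, against 33.6, 33.6, 45.8 and 33.9 RPKM in GPC. The groups did not overlap, with GPC replicate 3 the highest of the GPC, and Msi1 rose by 0.64 ± 0.12 on the log2 scale, or 1.56-fold (adjusted p = 0.000767 by edgeR). Msi2, its close relative, had 34.1, 39.1 and 32.1 RPKM in glia and 40.6, 46.9, 56.3 and 47.0 RPKM in GPC. Here all glia values were below all GPC values, and Msi2 fell by 0.48 on the log2 scale (SE 0.11, adjusted p = 0.00303). Both calls held with any 1 library left out (adjusted p at most 0.00587 for Msi1 and 0.0193 for Msi2).

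The Msi1 share of Musashi RPKM was 63.5%, 58.3% and 65.7% in glia and 45.3%, 41.7%, 44.9% and 41.9% in GPC. By RPKM, Msi1 was thus above Msi2 in each glia library and below it in each GPC library. The exact permutation p was at its smallest possible value of 0.0571 (0.0686 adjusted over the 6 shares). By reads, Msi2 was above Msi1 in every library, with 3300, 1518 and 3135 against 1582, 586 and 1661 reads in glia. The order by RPKM therefore depends on the implied gene models, 1551 bp for Msi1 and 5618 bp for Msi2. The sum of the 2 genes was 93.4, 93.8 and 93.5 RPKM in glia and 74.2, 80.5, 102 and 80.9 RPKM in GPC, with overlapping groups (exact permutation p = 0.229).

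Qk was the most abundant of the 10 genes in both groups, with 226.9, 243.1 and 210.3 RPKM in glia and 178.4, 215.0, 228.8 and 203.8 RPKM in GPC. The groups overlapped, and the log2 change of 0.15 ± 0.10 did not pass (adjusted p = 0.189). Without GPC replicate 3 it was 0.22 and passed (adjusted p = 0.0172). In mean level Qk was above 98.5% of tested genes in glia and above 98.0% in GPC. The table gives 1 value per gene, so the nuclear and cytoplasmic isoforms of QKI, which differ in their last exons, cannot be told apart.

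Among mRNAs that QKI is known to bind, the myelin genes rose in glia. Mbp, for myelin basic protein, had 1026.3, 782.3 and 1176.8 RPKM in glia and 6.66, 6.03, 15.9 and 6.94 RPKM in GPC. It rose by 6.55 ± 0.36 and Mag, for a myelin adhesion protein, by 6.79 ± 0.36 on the log2 scale. Leaving out GPC replicate 3 gave 7.66 for Mag. Nfasc, for the adhesion protein neurofascin, rose by 4.01 ± 0.08, Sirt2, for a deacetylase of oligodendrocytes, by 2.23 ± 0.15 and Map1b, for a microtubule protein, by 0.58 ± 0.13. The cell cycle inhibitor gene Cdkn1b did not pass (-0.17 ± 0.08, adjusted p = 0.0685), but did without GPC replicate 1 (adjusted p = 0.0128). In all, 5 of 6 tested QKI targets rose and none fell, beside 35.2% of all tested genes higher and 35.2% lower in glia. The median log2 change of the 6 was 3.12. Mbp and Mag also belong to the oligodendrocyte markers, of which 13 of 13 rose with a median of 5.74, and the part of QKI in these changes was not tested.

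Reported targets of the ELAVL and Musashi proteins were called in both directions. Of 9 mRNAs known to bind ELAVL proteins, 4 rose, 2 fell and 3 did not pass, with a median log2 change of 0.12. That is 66.7% called, near the 70.4% of all tested genes. Mapt, for the microtubule protein tau, rose by 3.21 ± 0.14, the immediate early gene Fos by 2.19 ± 0.10, Sfrp1, for a secreted Wnt inhibitor, by 0.98 ± 0.21 and the splicing regulator gene Nova1 by 0.26 ± 0.06. The cell cycle inhibitor gene Cdkn1a fell by 1.0 (SE 0.10) and Myc, for a growth-promoting transcription factor, by 0.39 (SE 0.09). Gap43, for a growth cone protein, gave 0.10 ± 0.07, the neurotrophin gene Bdnf 0.12 ± 0.22 and the acetylcholinesterase gene Ache -0.55 ± 0.33. Of 5 Musashi targets 1 rose and 3 fell, or 80.0% called, beside 70.4% of all tested genes. Dcx rose by 2.69 ± 0.09, while Robo3, for an axon guidance receptor, fell by 1.72 (SE 0.33) and Jag1, for a Notch ligand, by 0.70 (SE 0.09). Cdkn1a is shared with the list above. Robo3 was low, at 0.216 to 0.246 RPKM in glia and at most 1.09 RPKM in GPC, in GPC replicate 3. Without that library its log2 change was -1.42. Numb, the Notch inhibitor whose translation Musashi represses, had 9.97, 10.8 and 9.92 RPKM in glia and 9.92, 9.62, 9.85 and 10.5 RPKM in GPC, with a log2 change of -0.02 ± 0.08.

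Celf1, which encodes a GU-binding regulator of splicing and mRNA decay, fell. It had 57.9, 58.3 and 51.8 RPKM in glia and 78.5, 77.3, 76.8 and 80.1 RPKM in GPC. The groups lay well apart and the 4 GPC values were close together, with an SD of 1.47 RPKM around a mean of 78.2. Celf1 fell by 0.51 on the log2 scale (SE 0.06, adjusted p = 4.49e-05 by edgeR), and by 0.46 to 0.54 with any 1 library left out.

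Celf2, its close relative, had 11.1, 12.5 and 10.4 RPKM in glia and 10.4, 12.3, 23.7 and 12.2 RPKM in GPC. GPC replicate 3 was 2.03 times the average of GPC replicates 1, 2 and 4, and apart from it the groups covered about the same range. The log2 change was -0.44 ± 0.29 (adjusted p = 0.215), or -0.09 without that library (adjusted p = 0.334). The Celf1 share of the sum of both genes was 83.2% ± 0.781 in glia (SD, n = 3) and 84.4% ± 5.39 in GPC (SD, n = 4), which overlapped (exact permutation p = 0.743). Without GPC replicate 3 the groups did not overlap, at 82.3% to 83.9% in glia and 86.3% to 88.3% in GPC. The difference then was -3.95 percentage points, against -1.29 with all libraries, and the exact permutation p was 0.1, the smallest that 3 against 3 libraries allow.

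Rbfox2, a splicing regulator that is also made outside the nervous system, had 18.6, 20.5 and 18.2 RPKM in glia and 14.5, 15.2, 18.5 and 15.2 RPKM in GPC. Glia replicates 1 and 2 were above all GPC libraries and glia replicate 3 was just below GPC replicate 3. The log2 change of 0.21 ± 0.09 missed the threshold (adjusted p = 0.0556). Without GPC replicate 3 it was 0.29 and passed (adjusted p = 0.000794).

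Outside the 10 genes, Celf3, Celf4, Celf5 and Celf6, the CELF genes best known from the nervous system, all rose. Over all tested genes, 35.2% rose. Celf3 had 11.8, 13.1 and 13.5 RPKM in glia and 1.64, 1.52, 3.02 and 2.21 RPKM in GPC, a log2 change of 2.53 ± 0.20, and Celf4 rose by 1.75 ± 0.14 on that scale. Celf5 rose by 0.78 ± 0.14 and Celf6 by 1.69 ± 0.27 on the same scale. Celf6 was low, at most 1.07 RPKM in glia and 0.426 RPKM in GPC, with 8 to 15 reads in each GPC library. Rbfox3, which encodes the neuronal nuclear antigen NeuN, had 4.78, 4.31 and 4.45 RPKM in glia and 0.941, 0.988, 2.06 and 0.83 RPKM in GPC, and rose by 1.61 ± 0.19, while Rbfox1 had too few reads to be tested. Among the STAR relatives of Qk, Khdrbs2 (SLM1) rose by 5.15 ± 0.35, although GPC replicate 1 had none of its reads, and Khdrbs1 (SAM68) fell by 0.75 (SE 0.07).

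The PTB genes encode pyrimidine-tract binding repressors of splicing, of which Ptbp1 is known from progenitors and Ptbp2 from neurons. Ptbp1 had 66.2, 67.1 and 65.1 RPKM in glia, against 143.1, 138.6, 135.7 and 132.6 RPKM in GPC. It fell by 1.09 on the log2 scale (SE 0.06, adjusted p = 1.17e-07 by edgeR), and Ptbp3 by 0.65 (SE 0.11). Ptbp2 rose, at 42.6, 46.2 and 40.8 RPKM in glia and 31.0, 35.9, 35.3 and 32.4 RPKM in GPC (log2 change 0.33 ± 0.08). By RPKM, Ptbp1 was the higher of the 2 in every library.

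Over the wider list of 39 brain RNA-binding proteins and their relatives, 36 were tested, 18 rose and 12 fell, with a median log2 change of 0.22. That is 83.3% called, beside 70.4% of all genes. Of the other large rises, Srrm4, for a splicing factor of neuronal microexons, rose by 2.63 ± 0.33, with 0.839 RPKM its highest value, Cpeb2 by 1.92 ± 0.22 and Cpeb1 by 1.70 ± 0.11. The CPEB proteins bind cytoplasmic polyadenylation elements. Of the other large falls, Mbnl3, for a muscleblind splicing factor, fell by 1.85 (SE 0.28) at under 0.5 RPKM, Rbpms2 by 0.98 (SE 0.21) and Zfp36l2, for a protein that destabilizes AU-rich mRNAs, by 0.50 (SE 0.08). The 12 relatives named were chosen by size of change among those already called without overlap of the groups. Their largest adjusted p, 0.00191 for Rbpms2 by edgeR, is therefore limited by that choice.

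**Figure D3:**
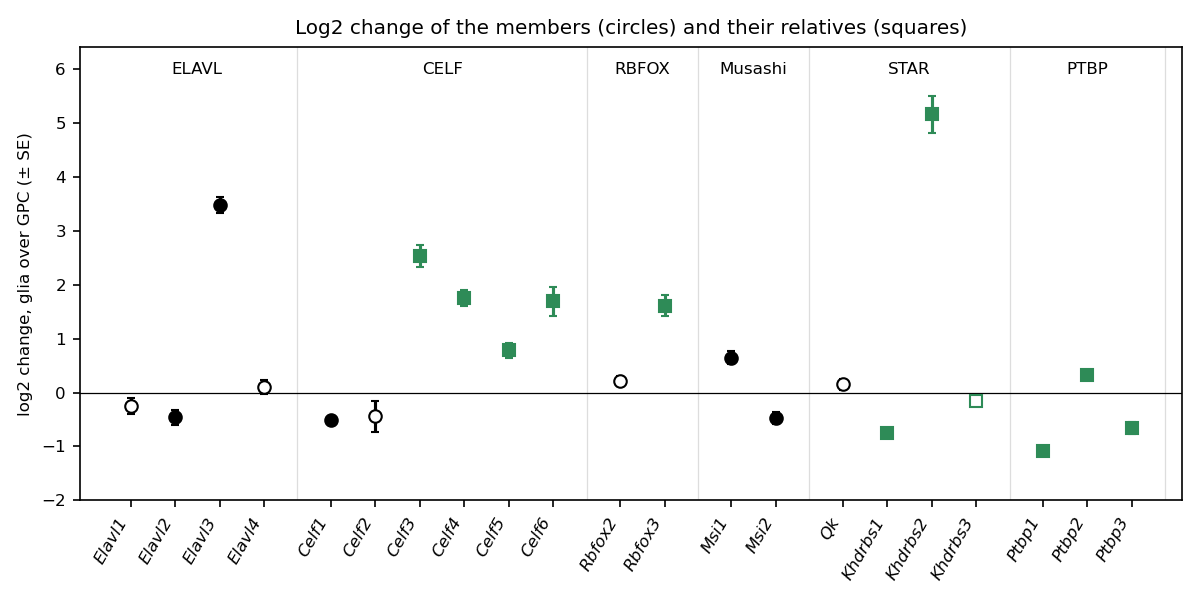
Log2 change of glia over GPC with its SE (bars) for the 10 genes (black circles) and their relatives (green squares), by family; filled symbols passed the test and open ones did not. Elavl3 (3.48), Celf3 (2.53) and Khdrbs2 (5.15) are the highest in their families.

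By mean RPKM, which corrects for the length of the gene model, the order in glia was Qk, Msi1, Celf1, Msi2, Elavl3, Rbfox2, Elavl1, Celf2, Elavl4 and Elavl2. Neighbours whose libraries overlapped there were Msi1 with Celf1 and Msi2 with Elavl3. In GPC the order was Qk, Celf1, Msi2, Msi1, Elavl1, Rbfox2, Celf2, Elavl4, Elavl2 and Elavl3, and neighbours overlapped except between Qk and Celf1, Celf1 and Msi2, Msi1 and Elavl1, and Celf2 and Elavl4. Elavl3 was number 5 in glia and last in GPC. The model lengths implied by counts and RPKM spanned 1551 bp for Msi1 to 7825 bp for Celf2, and levels of different genes depend on these models.

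SOX3 and SOX9 are transcription factors of neural progenitors and of glial fate, and the authors assigned each of their peaks to a gene with a signed distance to its transcription start site (TSS). In GPC, SOX3 peaks were assigned to 4 of the 10 genes (Qk, Msi1, Msi2 and Celf2) and SOX9 peaks to 5 (Qk, Msi2, Elavl2, Elavl4 and Celf2). Among genes tested for expression, 5.82% had a SOX3 peak, 11.6% a SOX9 peak and 2.86% both, as Qk, Msi2 and Celf2 did. The SOX9 peaks of Qk and all peaks of Msi2 lay more than 100 kb from the TSS, so only Celf2 had both within 100 kb. Elavl1, Elavl3, Celf1 and Rbfox2 had no peak assigned, so of the 5 genes that changed, Elavl3 and Celf1 had no assigned peak of either factor. A missing assignment does not show that a factor was absent there. No test was made of these counts, since each factor has 1 list and peaks fall to genes by distance. All coordinates of peaks are of build mm9.

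Qk had the most peaks, 3 of SOX3 and 3 of SOX9, none of them shared. The SOX3 peaks were at chr17:10527892-10528133, 14918 bp upstream of the TSS, at chr17:10475669-10475836, 36474 bp downstream, and at chr17:10302800-10303108, 209272 bp downstream. The SOX9 peaks all lay upstream, at 124799, 160919 and 163890 bp (chr17:10637594-10638194, chr17:10673713-10674313 and chr17:10676684-10677284). The nearest SOX3 and SOX9 peaks of Qk were 109881 bp apart, centre to centre.

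Msi2 was the gene at which the factors met. A SOX3 peak at chr11:88396718-88397172 and a SOX9 peak at chr11:88396611-88397211, 182470 and 182505 bp downstream of the TSS, had centres 34 bp apart. A further SOX9 peak, 180669 bp downstream, was at chr11:88398446-88399046. Msi1 had 1 SOX3 peak, 31040 bp upstream (chr5:115848467-115848670), and no SOX9 peak. Over the whole lists, 10.8% of 2943 SOX9 peaks overlapped a SOX3 peak and 21.9% of 1367 SOX3 peaks overlapped a SOX9 peak.

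Celf2 had a SOX3 peak 9595 bp downstream of the TSS (chr2:6796372-6796522) and a SOX9 peak 18698 bp upstream (chr2:6824440-6825040), 28293 bp apart. Elavl4 had the peak closest to a start, a SOX9 peak 5629 bp upstream (chr4:109964823-109965423). At Elavl2 all 3 SOX9 peaks lay downstream, at 40470, 40301 and 23419 bp. The first 2 of these (chr4:91025906-91026506 and chr4:91026074-91026674) overlapped each other and the same NFIA peak. No other SOX9 peak of the 10 genes overlapped an NFIA peak, which makes 2 of 10 peaks, beside 28.4% of all SOX9 peaks. The last Elavl2 peak was at chr4:91042957-91043557. Genes such as Celf2 have several annotated starts, and the deposited distance refers to 1 of them.

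**Figure D4:**
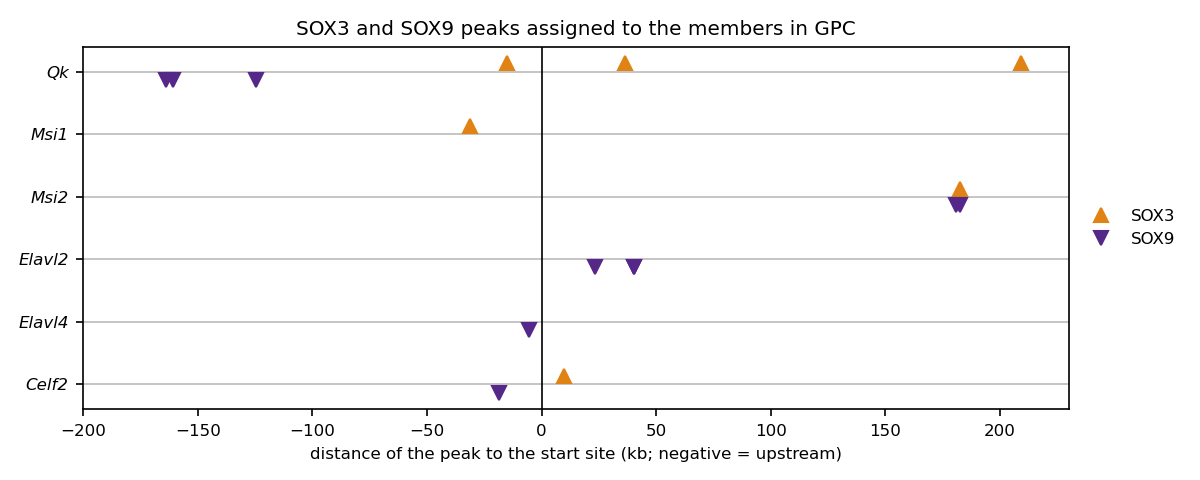
Distance in kb from the TSS, as deposited by the authors, of the SOX3 peaks (upward triangles) and SOX9 peaks (downward triangles) assigned to 6 of the 10 genes in GPC; negative is upstream. The peaks lie between 163890 bp upstream and 209272 bp downstream, and the closest to a start is the SOX9 peak of Elavl4.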

How the data were processed

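Expression was measured in 3 glia and 4 GPC libraries. The authors deposited raw read counts per gene and, beside them, RPKM values per kilobase of gene model scaled to each library's normalization reads, per the file headers. Build mm9 and the peak callers MACS and MACS2 are named, per the submitters' processing notes. No aligner or counter is named there, and without a stated use of strand, reads from overlapping antisense genes cannot be told apart. The SOX3 and SOX9 lists pair peaks with genes, and each NFIA peak has a score deposited by the authors, whose meaning is not stated. Each list covers all samples of its factor, so replicates could not be compared. Of the 19 samples labelled, the input and H3K27Ac samples were not analysed here.

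Glia and GPC counts were compared with edgeR 4.0.16 in R 4.3.3 (TMM, filterByExpr, robust glmQLFit and glmQLFTest of glia against GPC), which was tested on simulated data, with Benjamini-Hochberg adjustment over the 13588 genes that passed the filter and a threshold of 0.05. The common biological coefficient of variation was 0.108. SE is the size of the log2 change over the square root of F. RPKM served for levels and family shares, the latter compared by exact permutation over libraries (SciPy 1.17.1). Alternatives used DESeq2 1.42.0 and limma 3.58.1. No pair of replicates was within sampling noise (chi-square per gene 2.05 to 29.9). Peaks overlapped when they shared 1 bp.

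The 10 genes, the gene lists and the tests were chosen with earlier results of these data known. Besides the 10 genes, the text names the 6 rising and 6 falling genes of the wider list with the largest log2 changes among those called without overlap of the groups, all tested mRNA targets, and the 2 most abundant markers of each cell type. Celf5, Celf6, Rbfox3, Ptbp2, Tubb3, Stmn2, Neurod1, the defining genes at 0 and the genes under other observations were named after their values were seen. So were the neuronal markers Nefh, Syt1, Gad1, Ina, Nefl and Syn1, and the astrocyte markers Slc1a3 and Aldh1l1. In the lists 4 genes were matched through a synonym (Ptbp3, Map1b, Map2 and Myrf), and Hnrnpa1, on several lines, was left out. Some genes of the lists are not reported here and enter none of the lists' counts or sums.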

Additional observations from a re-analysis of the deposited data

Results flagged for a closer look

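In 10 of 47 values examined, 1 of the 4 GPC libraries lay far from the other 3, and in all 10 it was GPC replicate 3; chance gives about 1 in 20. Among the 10 genes these were Msi1, at 45.8 RPKM against 33.6 to 33.9 RPKM in the other GPC libraries, and Celf2, at 23.7 RPKM against 10.4 to 12.3 RPKM. The share of Celf1 in the sum of Celf1 and Celf2, which leaves out Celf3 to Celf6, was 76.5% there against 86.3% to 88.3%.

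Of the other genes examined, GPC replicate 3 was high for Cpeb2 (6.15 RPKM against 3.19 to 3.52) and Mbp (15.9 against 6.03 to 6.94). The same held for Sirt2 (78.7 against 58.0 to 60.6) and Myc (87.3 against 68.9 to 71.6). It was also high for Sfrp1 (19.2 against 11.3 to 12.6) and Jag1 (8.10 against 7.20 to 7.32). It was low for Map1b (7.32 RPKM against 10.5 to 11.0). The values examined did not cover every gene named. Among the rest, the library was also high for Zfp36l1 (46.6 RPKM against 27.5 to 28.6) and Rbfox3 (2.06 against at most 0.988). Apoe (103.6 against 28.9 to 29.9) and Gfap (15.4 against 5.64 to 6.52) were high there too. Top2a (109.4 against 142.6 to 148.9) and Olig2 (491.3 against 544.7 to 553.4) were low. What sets this library apart was not tested.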

How the results depend on the processing

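The number of the 10 genes that rose was 2 to 4 with 1 library left out, the 4 without GPC replicate 3, and 2 to 3 under the other settings. Those that fell numbered 2 to 3. Over all genes, 4362 to 5159 rose with 1 library left out, the most without GPC replicate 3. Neuronal markers that fell numbered 1 to 3 with 1 library left out, and 1 with at least 50 counts required in 3 libraries, where fewer genes were tested. Of the 10 genes, those with a SOX9 peak numbered 3 within 100 kb of the TSS and 3 within 50 kb, against 5 at any distance. Over all genes measured, tested or not, the shares were 6.85% within 100 kb, 5.31% within 50 kb and 9.16% at any distance. Those of the 10 with a SOX3 peak numbered 3 within 100 kb and 3 within 50 kb, against 4 at any distance. The shares over all genes were 3.17%, 2.35% and 4.47%. No log2 change of the 10 genes changed sign under the 15 alternatives. Rbfox2 passed with library sizes alone (adjusted p = 0.0313), with the stricter filter (0.034), and by limma on log2(RPKM + 0.1) (0.0294) and log2(RPKM + 1) (0.0292); the cause was not tested. With the replicate number as a block, Elavl2 did not pass (-0.40, adjusted p = 0.0633), and 2 of the 10 genes rose and 2 fell. The numbers were not taken as pairs: same-numbered libraries had correlations of deviations of -0.063, 0.268 and 0.081. Elavl2 and Elavl4 had the fewest reads, 72 at the lowest, which limits what could be detected for them.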

Other observations

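Values of other families of the wider list are given as a description, since 70.4% of all tested genes were called. Of the 4 CPEB genes 3 rose (Cpeb1, Cpeb2 and Cpeb3), and Cpeb4 did not pass (log2 change 0.19 ± 0.12, adjusted p = 0.186 by edgeR, or 0.0346 without glia replicate 3). Cpeb3 had 2.46, 2.55 and 2.21 RPKM in glia and 0.811, 0.963, 0.832 and 1.02 RPKM in GPC. Fmr1, for the fragile X protein, and its relatives Fxr1 and Fxr2 all fell, by 0.46 (SE 0.11), 0.44 (SE 0.06) and 0.31 (SE 0.07) on the log2 scale. Pum2, for a PUF-family translational repressor, fell by 0.30 (SE 0.07). Zfp36l1, for an AU-rich element binding protein, had 70.1, 69.5 and 70.4 RPKM in glia and 28.6, 27.5, 46.6 and 28.2 RPKM in GPC, a rise of 1.06 ± 0.18, opposite in direction to its relative Zfp36l2.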
